A study of Mus musculus with 30 samples.

Results

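The genes described here are Apln, Aplnr, Cxcl12, Cxcr4 and Ackr3, the ligands and receptors of the apelin and Cxcl12 signalling pairs. They were taken by name from a gene count table of 54134 rows, and all 5 were among the 12149 genes that passed the filter on low values. The set was chosen by name but selected on measured values of these data: Cxcl12 at d2.5 and Apln at d3 had already been seen among the large differences between genotypes, so the genotype values at these stages are given as a description and without a test. The steps in time that start or end at these values are given in the same way.

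The libraries came from mouse Bruce4 embryonic stem cells (ESCs) that were differentiated towards neuromesodermal progenitors (NMPs), the tailbud cells that produce both spinal cord and paraxial mesoderm. Cells were either wildtype or Nr6a1-/-, and both were grown in N2B27 medium with FGF2 for 48 h to give the d2 group. The Wnt pathway agonist CHIR99021 was then added for 12 h (d2.5) or 24 h (d3). From d3 the cells received 24 h more of FGF2 and CHIR99021, without Gdf11 (d4) or with it (d4G). Each of the 10 groups held 3 replicates, 30 libraries in all. The Nr6a1-/- cells were a single clone with CRISPR/Cas9 deletions in exon 4 of both alleles that remove the DNA-binding domain, so genotype and clone cannot be told apart. The methods speak of biological replicates, but the labels do not say whether they were separate cultures, so that p-values measure only the spread between these libraries, which may be technical.

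Apelin is a secreted peptide that acts on Aplnr, a G protein-coupled receptor, and the pair is best known from the movement of mesoderm in the gastrula and from vessel and heart development. Cxcl12 is a chemokine that draws cells carrying Cxcr4 towards its source. Ackr3 also binds Cxcl12 but mainly recruits arrestin and takes the ligand up, and is regarded as a scavenger that shapes the gradient. In bulk RNA, fewer cells that express a gene and less RNA per cell cannot be told apart.

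Library totals lay between 1570714 and 3688197 counts, and a count of 0 in a library allows up to 3 counts, or 0.829 to 1.91 CPM (counts scaled to a common library total). Because the reads come from transcript 3′ ends and carry no length scaling, levels are compared between groups for each gene and not between genes. Nr6a1 itself does not check the labels, since its deletion lies outside the counted 3′ end: it stood at 96.7 to 99.5 CPM in wildtype and at 189 to 255 CPM in Nr6a1-/- libraries at d4. NMP markers (7 genes, summed) were present in every group and reached 844 to 889 CPM in wildtype and 1105 to 1237 CPM in Nr6a1-/- cells at d3. One library stood apart: d4 wildtype replicate 2 held 650 CPM of 6 summed epiblast markers, against 94.2 and 87.4 CPM in the other d4 wildtype libraries and 97.0 to 101 CPM at d4 in Nr6a1-/- cells. The values of the 5 genes that rest on it are given with and without it.

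**Figure D1:**
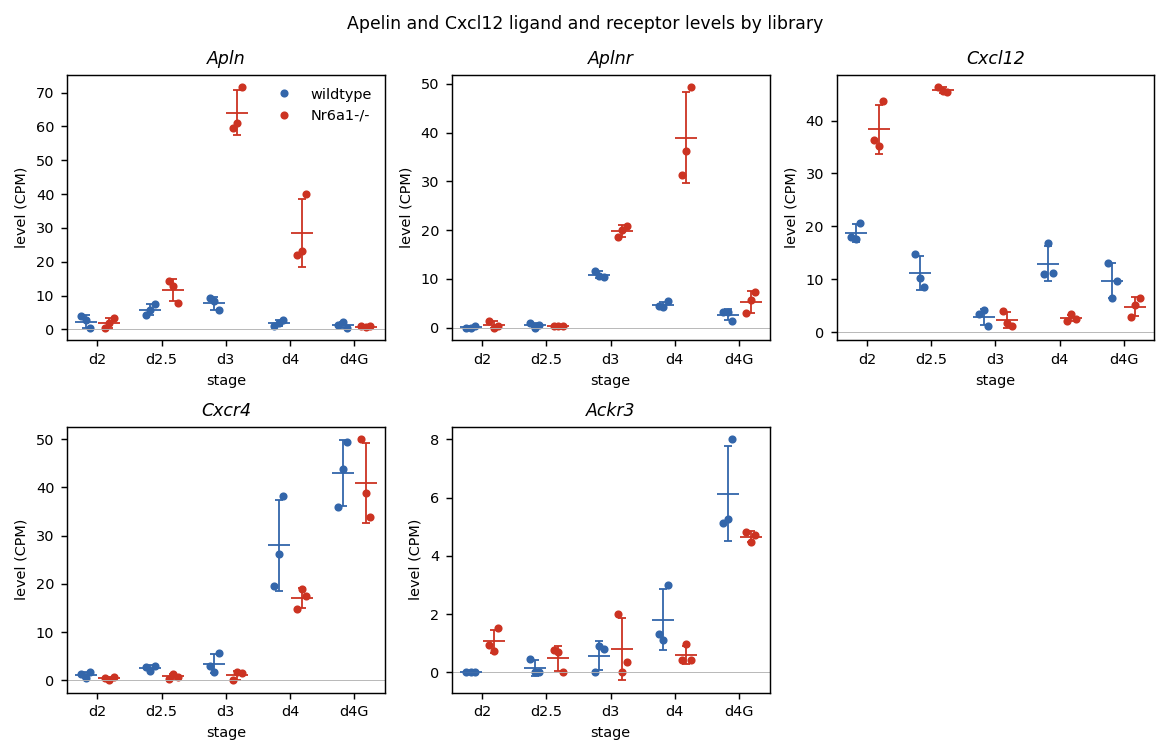
Level of each gene in CPM (y axis) by stage (x axis) for every library; points are libraries, bars the mean and SD of 3 replicates, blue wildtype and red Nr6a1-/-. Apln and Aplnr were highest in Nr6a1-/- cells at d3 and d4, Cxcl12 was highest in Nr6a1-/- cells at d2 and d2.5, and Cxcr4 and Ackr3 were highest at d4G in both genotypes.

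The promoters of both ligands are shown because the choice of genes began with their differences between genotypes. Capitals mark the motif that was found in each. They are RefSeq windows on the gene strand of GRCm38.p6, 250 bases before to 50 bases after the start. The table held a window for 4 of the 5 genes, all but Aplnr. The Apln window is chrX:48034804-48035103 on the minus strand and the Cxcl12 window chr6:117168285-117168584 on the plus strand.

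Apln: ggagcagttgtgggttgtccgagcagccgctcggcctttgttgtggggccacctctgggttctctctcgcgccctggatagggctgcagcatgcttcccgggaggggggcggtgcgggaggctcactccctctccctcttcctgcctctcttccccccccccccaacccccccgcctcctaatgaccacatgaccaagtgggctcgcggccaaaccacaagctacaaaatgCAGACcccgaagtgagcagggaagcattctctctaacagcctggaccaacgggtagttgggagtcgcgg

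Cxcl12: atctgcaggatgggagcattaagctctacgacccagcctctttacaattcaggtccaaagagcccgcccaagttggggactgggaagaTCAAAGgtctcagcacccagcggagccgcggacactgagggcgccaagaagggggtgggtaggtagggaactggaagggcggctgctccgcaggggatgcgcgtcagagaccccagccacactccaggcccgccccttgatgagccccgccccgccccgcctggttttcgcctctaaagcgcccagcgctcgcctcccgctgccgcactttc

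Motifs were searched on both strands as exact letters. The letters AGGTCA, to which Nr6a1 and related nuclear receptors bind, were in none of the 4 windows and in 16.3% of the 32851 windows of all genes, and 2 such copies without a gap were in 0.00609%. The Smad letters CAGAC, read by the factors that act downstream of Gdf11, were in the Apln window 19 bases before the start, and 49.6% of all windows hold them. The Cxcl12 window held the Tcf/Lef letters CTTTGA on the opposite strand, 162 bases before the start, which 16.0% of windows hold. The hypoxia letters ACGTG or GCGTG were in the windows of Cxcr4 and Ackr3 and in 43.8% of all windows. These matches describe letters only.

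Apln lies on chromosome X from 48025146 to 48034853 on the minus strand and Aplnr on chromosome 2 from 85136225 to 85139923 on the plus strand (GENCODE release M21, GRCm38). Apln RNA was scarce at d2, with overlapping genotypes: the wildtype libraries held 9, 5 and 1 counts, the Nr6a1-/- libraries 1, 5 and 9, with means of 2.31 ± 1.82 CPM (SD, n = 3) and 1.92 ± 1.47 CPM. The difference of -0.08 had a 95% interval of -1.39 to 1.23 and did not pass the test. At d2.5 the wildtype libraries stood at 4.29, 5.59 and 7.59 CPM and the Nr6a1-/- libraries at 14.2, 13.0 and 7.87 CPM. At d3 the wildtype values were 9.17, 8.29 and 5.60 CPM and the Nr6a1-/- values 59.4, 61.1 and 71.8 CPM. The ranges of both genotypes were apart at d2.5 and wide apart at d3.

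As a description, Apln was higher in Nr6a1-/- cells by 1.00 at d2.5 (SE 0.365) and by 3.07 at d3 (SE 0.268) on the log2 scale. At d4 the 3 wildtype libraries stood at 0.872, 1.93 and 2.70 CPM while the Nr6a1-/- libraries stood at 22.1, 23.2 and 40.0 CPM. This difference, which was not used in the choice of genes, was 14.4-fold (log2 fold change 3.85, SE 0.361, FDR 1.8e-10). It was 3.84 without d4 wildtype replicate 2. At d4G no Apln level above 2.03 CPM was seen: wildtype libraries held 3, 5 and 1 counts and Nr6a1-/- libraries 2, 1 and 2, and the pooled ratio of 0.649 (Nr6a1-/- over wildtype) had an exact 95% interval of 0.171 to 2.16. Intervals from counts cover counting error only.

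Aplnr was at or near the detection limit until d3. At d2 the wildtype group held 1 count in all and the Nr6a1-/- group 4, and at d2.5 both groups held 3. By d3 the receptor had appeared in both genotypes: wildtype libraries stood at 11.6, 10.6 and 10.4 CPM and Nr6a1-/- libraries at 18.5, 20.1 and 20.8 CPM. The rise from d2.5 to d3 was called in both, at 4.31 in wildtype (SE 0.548, FDR 3.91e-07) and 5.58 in Nr6a1-/- cells (SE 0.46, FDR 1.11e-11) on the log2 scale. With 3 counts at d2.5 these folds are loose, and the pooled counts gave ratios of 21.8 (exact 95% interval 7.17 to 108) and 54.6 (18.3 to 268).

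From d3 to d4 the receptor went opposite ways. In wildtype cells Aplnr fell by 1.21 on the log2 scale (SE 0.311, FDR 0.00426; -1.12 without d4 wildtype replicate 2) to 4.36, 4.14 and 5.40 CPM. In Nr6a1-/- cells it rose by 0.98 (SE 0.21, FDR 0.000514) to 31.2, 36.3 and 49.4 CPM. The d4 libraries of both genotypes did not overlap, and Aplnr was 8.31-fold higher in Nr6a1-/- cells (log2 fold change 3.06, SE 0.256, FDR 1.16e-11; 2.96 without d4 wildtype replicate 2). At d3 the genotype difference was 0.87 (SE 0.252), as a description. At d4G wildtype libraries stood at 3.26, 3.25 and 1.26 CPM and Nr6a1-/- libraries at 2.89, 5.73 and 7.29 CPM, which overlap, and the difference of 1.04 (SE 0.44) did not pass the test (FDR 0.168).

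The ligand moved over the same interval. In Nr6a1-/- cells Apln rose from d2 to d2.5 by 2.501 (SE 0.435, FDR 3.49e-05), and in wildtype cells by 1.42 (SE 0.531, FDR 0.0457). As a description, its log2 fold change in Nr6a1-/- cells was 2.46 from d2.5 to d3 (SE 0.238) and -1.17 from d3 to d4 (SE 0.215). In wildtype cells these values were 0.39 (SE 0.41) and -1.94 (SE 0.467; -1.93 without d4 wildtype replicate 2). The wildtype step from d2 to d2.5 rests on few counts and was lost without any 1 of d2 wildtype replicate 2 (1.55, FDR 0.0605), d2 wildtype replicate 3 (0.78, FDR 0.311), d2.5 wildtype replicate 2 (1.45, FDR 0.0759) or d2.5 wildtype replicate 3 (1.19, FDR 0.167). Over all 10 groups the mean level of Apln ran from 64.1 ± 6.69 CPM (d3 Nr6a1-/-) through 28.5 ± 10.1 CPM (d4 Nr6a1-/-) and 11.7 ± 3.35 CPM (d2.5 Nr6a1-/-) to 0.819 ± 0.166 CPM (d4G Nr6a1-/-). The d3 and d4 Nr6a1-/- groups stood apart from their neighbours in this order, while d2.5 Nr6a1-/-, d3 wildtype and d2.5 wildtype overlapped in turn, as did the 5 lowest groups. For Aplnr the order was d4 Nr6a1-/- (39.0 ± 9.41 CPM), d3 Nr6a1-/- (19.8 ± 1.21 CPM) and d3 wildtype (10.9 ± 0.637 CPM), each apart from the next, followed by d4G Nr6a1-/- (5.30 ± 2.23 CPM) and d4 wildtype (4.64 ± 0.673 CPM), which overlapped.

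Cxcl12 lies on chromosome 6 from 117168535 to 117181367 on the plus strand, and its genotype difference changed sign along the time course. At d2 the wildtype libraries stood at 17.9, 17.5 and 20.6 CPM and the Nr6a1-/- libraries at 36.2, 35.2 and 43.6 CPM. The groups did not overlap, and the ligand was 2.03-fold higher in Nr6a1-/- cells (log2 fold change 1.02, SE 0.204, FDR 0.00131). It was the only one of the 5 genes called at d2, where 4.07% of all genes tested were called.

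At d2.5 the wildtype libraries held 14.8, 10.2 and 8.60 CPM and the Nr6a1-/- libraries 46.4, 45.5 and 45.4 CPM, a difference of 2.02 on the log2 scale (SE 0.224) that is given as a description. Both groups were low at d3, with 3.38, 4.14 and 1.20 CPM in wildtype and 4.02, 1.71 and 1.12 CPM in Nr6a1-/- libraries, and these ranges overlap. At d4 wildtype libraries had returned to 10.9, 16.9 and 11.1 CPM while Nr6a1-/- libraries stayed at 2.17, 3.39 and 2.56 CPM. Cxcl12 was thus 4.85-fold lower in Nr6a1-/- cells at d4 (log2 fold change -2.28, SE 0.35, FDR 5.44e-06; -2.02 without d4 wildtype replicate 2). At d4G the libraries stood at 13.0, 6.50 and 9.70 CPM in wildtype and 2.89, 5.09 and 6.43 CPM in Nr6a1-/- cells, a difference of -0.98 (SE 0.349) that did not pass the test (FDR 0.0812). It passed without d4G wildtype replicate 2 (-1.23, FDR 0.0331).

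The genotype difference at d4 was also set against that at d2, a contrast chosen after the data had been seen. It tests whether the 2 differences are unequal, while the change of sign rests on the separate values at d2 and d4. For Cxcl12 this gave -3.30 on the log2 scale (SE 0.403, FDR 2.47e-07; -3.04 without d4 wildtype replicate 2). The same contrast called 3 of the 5 genes and 9.19% of all genes tested. Of these 3, Ackr3 had no group above 2 CPM and nothing is read from its call. As a description, the step of Cxcl12 from d2.5 to d3 was -1.97 in wildtype (SE 0.378) and -4.31 in Nr6a1-/- cells (SE 0.29). From d3 to d4 it rose by 2.20 in wildtype cells (SE 0.346, FDR 8.34e-06; 1.94 without d4 wildtype replicate 2), whereas the change in Nr6a1-/- cells was 0.24 (95% interval -0.81 to 1.29, FDR 0.789). From d2 to d2.5 its change was -0.74 in wildtype (SE 0.258) and 0.25 in Nr6a1-/- cells (SE 0.178), also as a description.

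In order of level, Cxcl12 was highest at d2.5 (45.8 ± 0.544 CPM) and d2 (38.4 ± 4.59 CPM) in Nr6a1-/- cells and then at d2 in wildtype cells (18.7 ± 1.70 CPM), each apart from the next. The wildtype groups at d4, d2.5 and d4G followed and overlapped. The lowest 4 groups, d4G Nr6a1-/-, d3 wildtype, d4 Nr6a1-/- and d3 Nr6a1-/-, also overlapped in turn, at 4.80 to 2.28 CPM.

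**Figure D2:**
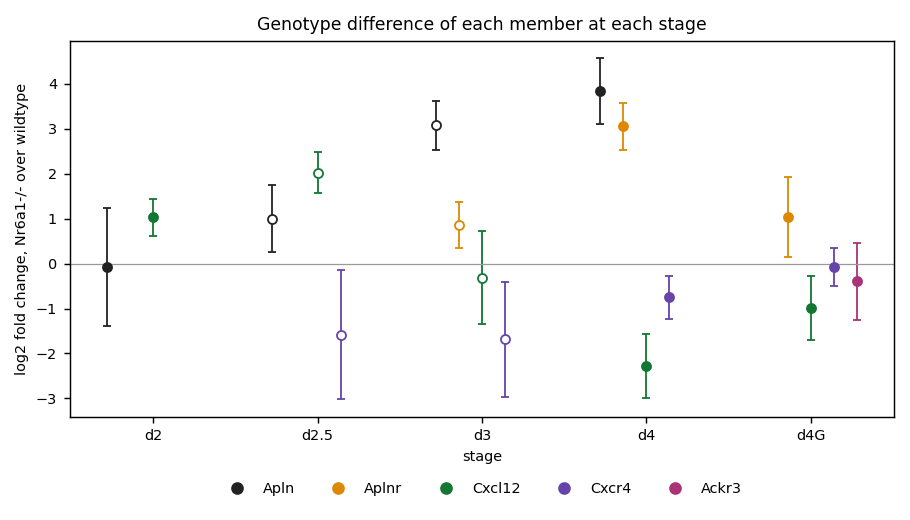
Log2 fold change of Nr6a1-/- over wildtype cells (y axis) by stage (x axis), with 95% confidence intervals; open points at d2.5 and d3 are descriptions and carry no test, and genes at or below 2 CPM in both groups are not drawn. Cxcl12 ran from 1.02 at d2 to -2.28 at d4, and Apln and Aplnr stood at 3.85 and 3.06 at d4. The value of Ackr3 at d4G is also a description.

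The receptors of Cxcl12 followed another course. Cxcr4 lies on chromosome 1 from 128588199 to 128592293 on the minus strand and carries the chemotactic signal of the pair. It was scarce until d3: the wildtype groups held 9, 16 and 24 counts in all at d2, d2.5 and d3, and the Nr6a1-/- groups 3, 7 and 8. At d2.5 and d3 no Nr6a1-/- library reached the lowest wildtype one, and the difference was -1.59 (SE 0.709) and -1.69 (SE 0.632) on the log2 scale, as a description.

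Cxcr4 rose from d3 to d4 in both genotypes, by 2.99 in wildtype (SE 0.32, FDR 5.49e-09; 3.05 without d4 wildtype replicate 2) and 3.93 in Nr6a1-/- cells (SE 0.45, FDR 1.46e-08). At d4 the wildtype libraries stood at 19.6, 26.2 and 38.1 CPM and the Nr6a1-/- libraries at 14.7, 18.9 and 17.5 CPM. The groups came close but did not overlap, and Cxcr4 was 1.68-fold lower in Nr6a1-/- cells (log2 fold change -0.74, SE 0.235, FDR 0.0226; -0.81 without d4 wildtype replicate 2). That call was lost without d4 wildtype replicate 3 (-0.46, FDR 0.228), d4 Nr6a1-/- replicate 1 (-0.66, FDR 0.0717) or d4 Nr6a1-/- replicate 3 (-0.77, FDR 0.0616). At d4G the libraries stood at 35.8, 43.9 and 49.3 CPM in wildtype and 50.02, 38.8 and 33.9 CPM in Nr6a1-/- cells, and the difference was -0.08 (95% interval -0.50 to 0.34, FDR 0.901). By level the d4G groups (43.0 ± 6.79 CPM in wildtype, 40.9 ± 8.26 CPM in Nr6a1-/-) overlapped each other and d4 wildtype (28.0 ± 9.38 CPM), d4 Nr6a1-/- followed apart from it at 17.0 ± 2.11 CPM, and the remaining 6 groups lay at 3.45 CPM or below.

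Ackr3 lies on chromosome 1 from 90203980 to 90216751 on the plus strand and was scarce in most groups. No wildtype library held a count at d2, while the Nr6a1-/- libraries held 2, 2 and 4. It passed 2 CPM as a group mean only at d4G, where the wildtype libraries stood at 5.12, 5.28 and 8.01 CPM and the Nr6a1-/- libraries at 4.81, 4.46 and 4.72 CPM. These ranges did not overlap. The difference of -0.39 (SE 0.422) is given as a description, since Ackr3 passed the filter on low values only through the d4G wildtype libraries. At d4 the groups held 17 counts in wildtype and 4 in Nr6a1-/-, a pooled ratio of 0.324 (exact 95% interval 0.0792 to 0.992).

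Across the genotype comparisons, 4 of the 5 genes were called at d4 (Apln and Aplnr higher, Cxcl12 and Cxcr4 lower in Nr6a1-/- cells), where 18.9% of all genes tested were called. None was called at d4G, where 7.90% were, but Ackr3 is given there as a description. At d2.5 and d3, where 6.45% and 10.8% of all genes were called, the members are not counted. By edgeR's quasi-likelihood test Cxcl12 and Aplnr had an unadjusted p under 0.05 at d4G. The share of all genes under that value was not counted, so nothing is read from this. DESeq2 called 0 of the 5 at d4G, and 794 of 12149 genes. Groups of 3 did not overlap for 2 of the 5 genes at d2 (21.3% of all genes), 3 at d2.5 (25.2%), 3 at d3 (28.5%) and 2 at d4G (24.3%), and for d2.5, d3 and d4G nothing is read from this. At d4 it was 5 of 5 (29.2%), of which 2 were higher (15.2%) and 3 lower (1706 of the 12149 genes).

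Markers of other cell types moved between the genotypes at d4, and their part in these values was not tested. The summed level of 8 paraxial mesoderm markers was 285 to 348 CPM in wildtype and 671 to 709 CPM in Nr6a1-/- libraries, that of 10 definitive endoderm markers was 66.9 to 84.1 and 9.80 to 16.4 CPM, and that of 13 endothelial markers was 57.6 to 61.1 and 26.6 to 31.2 CPM. Of 8 tested endoderm markers 7 were lower in Nr6a1-/- cells, as were 3 of 3 tested endothelial markers. Of 6 tested paraxial mesoderm markers 5 were higher, where 18.9% of all genes were called. Of the endothelial sum, Egfl7 made up on average 33.0 CPM (wildtype) and 22.1 CPM (Nr6a1-/-). Flt1 made up 14.1 and 0.912 CPM, and Etv2 7.34 and 3.09 CPM. Of the 13 endothelial markers only these 3 passed the filter on low values. The untested ones did not exceed 7.57 CPM in any library, and Erg and Emcn had no count. Egfl7 and Etv2 were highest at d2, with means of 55.3 and 37.1 CPM in wildtype and 60.1 and 42.3 CPM in Nr6a1-/- cells. A change in endothelial cells is therefore not read from these values. At d2, where Cxcl12 was higher in Nr6a1-/- cells, 8 markers of fibroblast feeder cells summed to 16.5 to 22.7 CPM in wildtype and 33.4 to 39.1 CPM in Nr6a1-/- libraries, and 0 of the 4 tested passed the test. At d2.5 this sum was 20.2 to 27.2 and 31.1 to 33.3 CPM, and at d4, where Cxcl12 was lower in Nr6a1-/- cells, 25.7 to 29.8 and 17.0 to 23.0 CPM. At d3, where both genotypes had little Cxcl12, the same sum was 47.4 to 55.2 and 61.4 to 74.8 CPM.

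In Nr6a1-/- cells, addition of Gdf11 for 24 h moved the receptors of Cxcl12 up and the apelin pair down. In wildtype cells the call for a rise of Cxcr4 depended on single libraries, and the rise of Ackr3 is given as a description. Apln in Nr6a1-/- cells went from 22.1, 23.2 and 40.0 CPM at d4 to 0.962, 0.637 and 0.858 CPM at d4G, 32.3-fold lower (log2 fold change -5.01, SE 0.481, FDR 2.44e-10). Aplnr went from 31.2, 36.3 and 49.4 CPM to 2.89, 5.73 and 7.29 CPM, 7.25-fold lower (log2 fold change -2.86, SE 0.275, FDR 2.59e-10). In neither gene did a d4G library reach a d4 library. Cell type markers moved as well, where 18.0% of all genes were called in Nr6a1-/- cells and 28.8% in wildtype. Summed paraxial mesoderm markers stood at 671 to 709 CPM at d4 and 250.9 to 273 CPM at d4G in Nr6a1-/- libraries, with 4 of 6 tested falling. In wildtype they stood at 285 to 348 and 147 to 162 CPM, also with 4 of 6 falling. Summed NMP markers stood at 466 to 603 and 230 to 269 CPM in Nr6a1-/- libraries, with 4 of 7 falling. In wildtype their sum was 497 to 531 and 464 to 483 CPM, with 3 of 7 rising and 3 falling. Sums of 8 cardiac and lateral mesoderm markers stood at 8.22 to 19.9 and 19.3 to 57.7 CPM in Nr6a1-/- and at 5.67 to 14.1 and 23.7 to 62.0 CPM in wildtype libraries. The part of these cell types in the Gdf11 values was not tested.

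In wildtype cells both were already low at d4. Apln held 18 counts at d4 and 9 at d4G, a pooled ratio of 0.662 (exact 95% interval 0.262 to 1.55), and Aplnr changed by -0.84 (SE 0.418, FDR 0.133; -0.93 without d4 wildtype replicate 2). The difference between genotypes in the response, tested as an interaction, was -4.44 for Apln (SE 1.07, FDR 0.0134) and -2.02 for Aplnr (SE 0.555, FDR 0.0373), and these 2 of the 5 genes were called where 2.66% of all genes were. Without d4 wildtype replicate 2 they were -4.44 (FDR 0.022) and -1.93 (FDR 0.0742). Both calls depend on single libraries. Wildtype Apln lay near the detection limit at d4 and d4G, so its interaction largely restates the genotype difference of 3.85 at d4. A different response of Apln to Gdf11 is not read from its call. The Apln call was lost without d4G wildtype replicate 1 (-4.38, FDR 0.0532) and without d4G wildtype replicate 2 (-3.92, FDR 0.168). The Aplnr call was lost in 7 of the 12 fits that left out 1 library, at FDR values of up to 0.189 and log2 differences of -2.06 to -1.71.

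**Figure D3:**
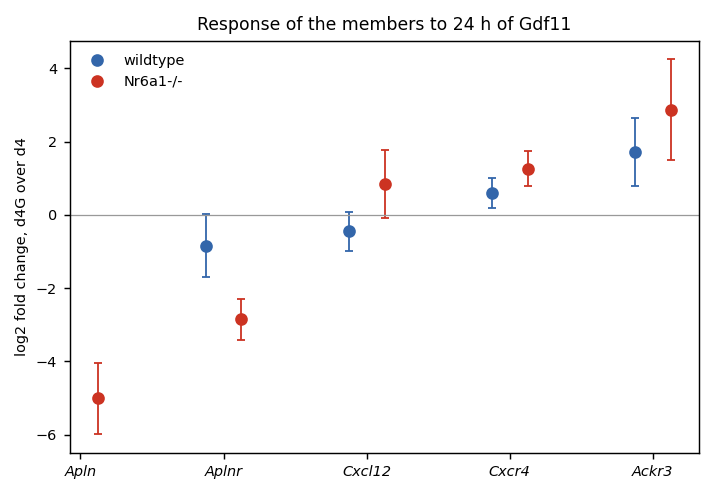
Log2 fold change of d4G over d4 cells (y axis) for each gene (x axis), with 95% confidence intervals, in wildtype (blue) and Nr6a1-/- (red) cells; wildtype Apln is not drawn because both groups lay at or below 2 CPM. Apln and Aplnr in Nr6a1-/- cells stood at -5.01 and -2.86, and Cxcr4 and Ackr3 lay above 0 in both genotypes.

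Cxcr4 rose with Gdf11 in Nr6a1-/- cells by 1.27 (SE 0.237, FDR 0.000127), from 14.7, 18.9 and 17.5 CPM to 50.02, 38.8 and 33.9 CPM without overlap. In wildtype cells the rise was 0.60 (SE 0.204, FDR 0.0254) with overlapping ranges. It was lost without the first (0.43, FDR 0.14) or the second (0.53, FDR 0.092) d4 wildtype library and without d4G wildtype replicate 2 (0.60, FDR 0.0627) or replicate 3 (0.49, FDR 0.125). Ackr3 passed the filter on low values only through its d4G wildtype libraries (11, 13 and 19 counts). Its wildtype rise of 1.72 (SE 0.46; 1.41 without d4 wildtype replicate 2) is therefore given as a description. In Nr6a1-/- cells Ackr3 rose by 2.87 (SE 0.676, FDR 0.00216). This rise rests on 4 counts at d4 and 28 at d4G, a pooled ratio of 7.87 (exact 95% interval 2.75 to 30.9). The interaction was 0.67 for Cxcr4 (95% interval 0.03 to 1.31, FDR 0.305), so a difference in its response was not shown. The interaction of Ackr3, which uses the same d4G wildtype libraries, was 1.15 (95% interval -0.63 to 2.94), as a description. Without d4 wildtype replicate 2 these were 0.73 and 1.46. In wildtype cells 2 of the 5 genes were called where 28.8% of all genes were, and in Nr6a1-/- cells 4 of the 5 where 18.0% were. The wildtype count includes Ackr3, and nothing is read from it.

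Gdf11 moved Cxcl12 past the test in neither genotype, with -0.45 in wildtype (95% interval -0.99 to 0.08, FDR 0.202; -0.19 without d4 wildtype replicate 2) and 0.84 in Nr6a1-/- cells (-0.09 to 1.78, FDR 0.22). Along the time course 2, 2 and 4 of the 5 genes were called in the successive wildtype steps d2 to d2.5, d2.5 to d3 and d3 to d4, where 25.4%, 11.5% and 21.1% of all genes were. In Nr6a1-/- cells it was 1, 3 and 3 of 5, where 24.1%, 15.9% and 25.9% of all genes were. Nothing is read from these counts, since they include Cxcl12 at d2.5 and Apln at d3, on which the genes were selected.

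Apela encodes the second peptide ligand of Aplnr. Its wildtype libraries at d4 stood at 17.0, 30.9 and 15.01 CPM and its Nr6a1-/- libraries at 11.3, 5.32 and 13.6 CPM. The difference of -1.07 (SE 0.279, FDR 0.00539) was lost without d4 wildtype replicate 2, the library with high epiblast markers (-0.63, FDR 0.146), and without d4 Nr6a1-/- replicate 2 (-0.78, FDR 0.0646). From d3 to d4 Apela fell in both genotypes, with a log2 fold change of -1.71 in wildtype (SE 0.202, FDR 4.39e-08) and -3.87 in Nr6a1-/- cells (SE 0.225, FDR 4.36e-16). The wildtype value was -2.14 without d4 wildtype replicate 2. In wildtype cells it fell again with Gdf11 (log2 fold change -1.76, SE 0.307, FDR 3.2e-05), to 5.12, 5.28 and 8.43 CPM. Without d4 wildtype replicate 2 this log2 fold change was -1.33 (FDR 0.00186).

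Among 9 listed genes for processing of Cxcl12 and for ligands that share its receptors, 6 were tested. The d4 comparison called 2 upward and 2 downward in the mutant, where 18.9% of all genes were called. Dpp4, the peptidase that cuts Cxcl12 at its amino end, stood at 37.9, 37.0 and 34.5 CPM in wildtype and at 0.866, 0.484 and 1.28 CPM in Nr6a1-/- libraries at d4. The groups lay far apart (log2 fold change -5.27, SE 0.298, FDR 2.63e-16). Dpp4 was also lower in Nr6a1-/- cells at d2 (-1.42, SE 0.266, FDR 0.000579) and d4G (-3.22, SE 0.31, FDR 7.91e-10). In Nr6a1-/- cells it was 4.21 ± 0.463 CPM at d2 and 2.77 ± 0.969 CPM at d3, while in wildtype cells it stood at 11.01 ± 2.64 and 26.1 ± 2.14 CPM.

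Mmp2 and Mmp14 are metalloproteases of the cell surface and matrix that can cleave Cxcl12. Mmp2 was lower in Nr6a1-/- cells at d4 by a log2 fold change of -1.11 (SE 0.193, FDR 4.17e-05). At d4G this was -1.60 (SE 0.135, FDR 2.47e-11). It rose with Gdf11 by 2.24 in wildtype (SE 0.135, FDR 1.14e-15) and 1.75 in Nr6a1-/- cells (SE 0.191, FDR 4.92e-09). At d4G its level was 91.2, 88.1 and 73.8 CPM in wildtype and 26.5, 26.7 and 29.6 CPM in Nr6a1-/- libraries. Mmp14 was higher in Nr6a1-/- cells at d4 (0.96, SE 0.184, FDR 0.000187). The other gene called higher at d4 was Adm, the peptide adrenomedullin that Ackr3 also binds, which was named after its values were seen because its level stayed under 10 CPM. Its libraries held 5 counts in wildtype and 38 in Nr6a1-/- at d4 (log2 fold change 3.27, SE 0.637, FDR 0.000221; 3.802 without d4 wildtype replicate 2).

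Of 14 tested G protein genes Gna12 and Gnb1 (2 genes) were higher and Gng12 and Gnai2 (2 genes) lower at d4 without Nr6a1, where 18.9% of all genes were called, beside a list median of 0.02 and a median of all genes of 0.02. Of 5 tested arrestin and receptor kinase genes 0 were called at d4 and 0 at d4G (18.9% and 7.90% of all genes). With Gdf11 1 of these 5 rose in each genotype, where 28.8% (wildtype) and 18.0% (Nr6a1-/-) of all genes were called. It was Grk3, a kinase that marks active receptors for arrestin. Grk3 rose by 2.65 in wildtype (SE 0.386, FDR 1.75e-06) and 2.19 in Nr6a1-/- cells (SE 0.348, FDR 1.03e-05), to 13.0, 9.75 and 12.6 and to 19.7, 17.2 and 14.6 CPM. Of 11 listed genes for RGS proteins, which switch G proteins off, 6 were tested. The interaction of genotype and Gdf11 called 1 of these 6, where 2.66% of all genes were called. It was Rgs12 (interaction -1.05, SE 0.245, FDR 0.0106), a call lost without d4G Nr6a1-/- replicate 3 (-0.84, FDR 0.0689). With Gdf11 Rgs12 rose by 0.47 in wildtype (SE 0.169, FDR 0.0329) and fell in Nr6a1-/- cells (-0.58, SE 0.177, FDR 0.0193).

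**Figure D4:**
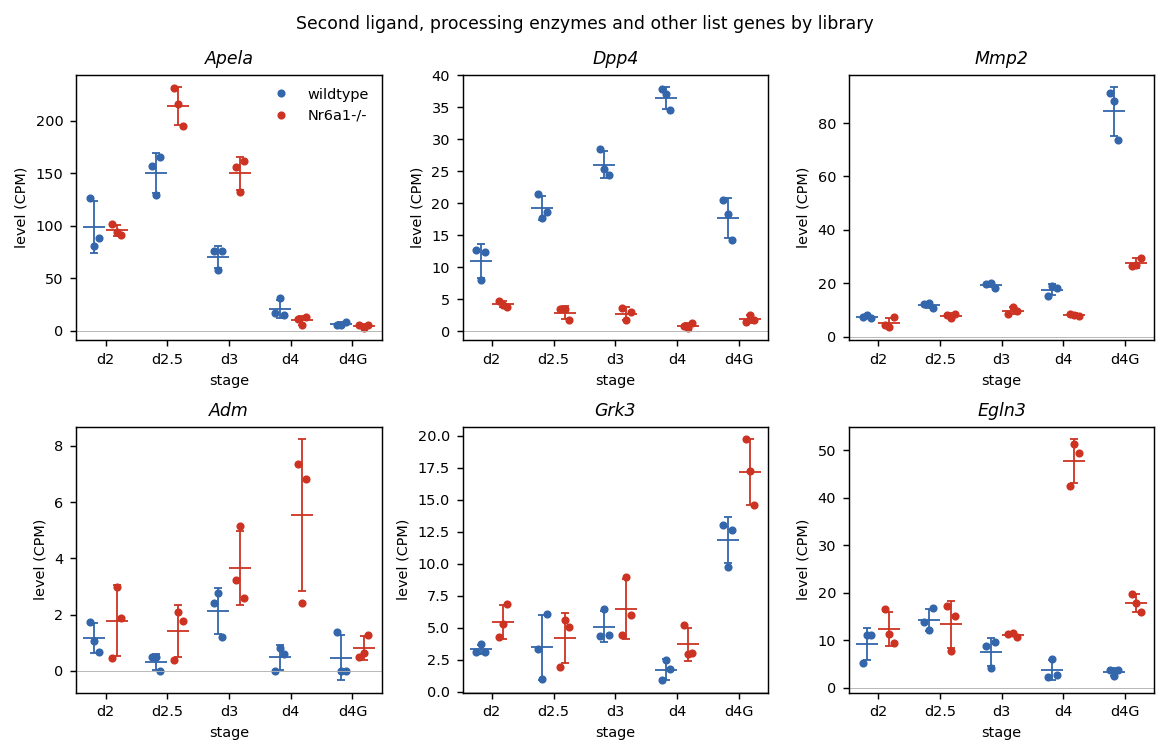
Level in CPM (y axis) by stage (x axis) of the second Aplnr ligand Apela, the enzymes Dpp4 and Mmp2, the Ackr3 ligand Adm, the receptor kinase Grk3 and the hypoxia response gene Egln3; points are libraries, bars the mean and SD of 3 replicates, blue wildtype and red Nr6a1-/-. At d4 Dpp4 stood at 34.5 to 37.9 CPM in wildtype and at 0.484 to 1.28 CPM in Nr6a1-/- libraries, and Egln3 at 2.18 to 6.08 and at 42.5 to 51.3 CPM.

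Most other chemokine genes did not pass the filter on low values. Of 34 other chemokine ligands 4 were tested and 8 had no count in any library, and of 21 other chemokine receptors 1 was tested and 4 had no count. At d4 (18.9% of all genes called) and at d4G (7.90%) 1 ligand of these 4 was lower in Nr6a1-/- cells and 0 were higher. It was Cxcl16, named after its values were seen, which binds another receptor and stood at 4.80, 6.08 and 10.2 CPM in wildtype and 3.47, 3.39 and 2.98 CPM in Nr6a1-/- libraries at d4 (log2 fold change -1.13, SE 0.346, FDR 0.0187). At d4G its difference was -1.10 (SE 0.35, FDR 0.0439).

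Apln and Cxcr4 are known as genes that hypoxia can raise, so 11 hypoxia response genes were listed. At d4 6 of the 10 tested exceeded wildtype in Nr6a1-/- cells and 0 fell short of it, where 18.9% of all genes were called, with a list median of 0.32 against 0.02 for all genes. Egln3, an oxygen sensor, stood at 42.5, 51.3 and 49.4 CPM in Nr6a1-/- libraries against 2.18, 6.08 and 2.70 CPM in wildtype (log2 fold change 3.61, SE 0.275, FDR 9.65e-13; 4.23 without d4 wildtype replicate 2), and Bnip3, a mitophagy gene, differed by 2.00 (SE 0.285, FDR 1.47e-06; 1.74 without that library). At d2 (4.07% of all genes called) 0 were higher and 2 lower, P4ha1 (-1.50, SE 0.252, FDR 0.000125) and Pdk1 (-0.70, SE 0.116, FDR 0.000108). At d4G (7.90%) 3 were higher, among them Egln3 (2.41, SE 0.362, FDR 8.54e-06), and 1 was lower, Ndrg1 (-2.69, SE 0.383, FDR 3.65e-06). With Gdf11 0 rose and 5 fell in Nr6a1-/- cells (18.0% of all genes called), among them the glucose transporter Slc2a1 (-2.15, SE 0.109, FDR 6.16e-18) and Pdk1 (-1.50, SE 0.158, FDR 2.28e-09). In wildtype cells (28.8%) 1 rose and 3 fell, and Slc2a1 changed by -1.77 (SE 0.106, FDR 9.24e-16). Their part in the values of Apln and Cxcr4 was not tested.

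Likeness of pattern was measured as Pearson's r over the 10 group means of log2 CPM, as a description over points that share libraries. Among 9731 genes with a group mean of at least 10 CPM, the nearest to Apln were Ptpmt1 (0.918), Rp9 (0.910) and Scn2b (0.907), and the nearest to Aplnr were Lrig1 (0.961), Ogfod3 (0.946) and 2310039H08Rik (0.940). The nearest to Cxcl12 were Plekha5 (0.911), Upf3b (0.906) and Ppp1r15a (0.890). Cxcr4 lay nearest to Pter (0.983), Golga7 (0.980) and Fbn2 (0.975), and Ackr3 to Fam222b (0.980), Tpm1 (0.971) and Cttnbp2nl (0.963). With a prior count of 0.5 in place of 2, 12 of these 15 genes remained among the nearest, all but 2310039H08Rik, Tpm1 and Cttnbp2nl. Among the 5 genes themselves r was highest for Cxcr4 and Ackr3 (0.77), followed by Apln and Aplnr (0.58), and lowest for Aplnr and Cxcl12 (-0.87). The nearest genes need not vary as widely: Ptpmt1 ran from 33.3 to 60.7 CPM over the groups, whereas Scn2b ran from 7.57 to 150 CPM.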

How the data were processed

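RNA was measured in 30 libraries of 10 groups. According to the submitters' processing notes and the study's methods, the authors used STAR, mm10 and edgeR on 3′-end libraries whose index was added at polyA priming. The counting tool, use of strand and removal of PCR copies are not given in the sources used here. The deposited table holds whole-number counts per gene, neither scaled nor pooled. The authors also deposited 5 tables of their own genotype comparisons (log2 fold changes, p-values, FDR and copies of counts and CPM), which were not used. All columns of the count table were matched to samples by name.

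A gene was kept if 2 or more libraries of any group exceeded both 10 counts and 2 CPM (12149 genes, at least 99.2% of each library's counts). After TMM scaling, edgeR 4.0.16 under R 4.3.3 fitted 10 group means, which left 20 residual degrees of freedom. Comparisons used the 2-sided quasi-likelihood test with Benjamini-Hochberg FDR below 0.05 over all genes tested. Log2 fold changes are given where a group mean exceeded 2 CPM, apart from 1 value of Ackr3 in the closing section, with an SE derived from the F statistic. The script was tested on simulated data. Members and gene lists were chosen with earlier results of these data known. Named beside the members were, per list and comparison, at most 2 rises and 2 falls among called genes reaching 10 CPM, and the 3 genes nearest each member. Log2 CPM used a prior count of 2. Positions are from GENCODE M21 and promoters from RefSeq, both GRCm38. Alternatives were RLE factors, no factors, DESeq2 1.42.0, no filter, fits of only the libraries compared, a replicate block, leaving out each replicate and a prior count of 0.5. The list of apelin processing genes is not reported here as a whole.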

Additional observations from a re-analysis of the deposited data

Results flagged for a closer look

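Several genotype differences changed from one condition to another when the change itself was tested in the edgeR model. The interaction of genotype and Gdf11 was called for Apln (-4.44, FDR 0.0134) and Aplnr (-2.02, FDR 0.0373) on the log2 scale. Wildtype Apln lay near the detection limit at d4 and d4G, so a different response of Apln is not read from its call. In Nr6a1-/- cells the 3 d4G libraries lay below the 3 d4 libraries for both genes, while in wildtype cells Apln held 18 counts at d4 and 9 at d4G.

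Between d2 and d4 the genotype difference changed for Cxcl12 (-3.30, FDR 2.47e-07), Apln (3.93, FDR 0.00132) and Ackr3 (-5.98, FDR 0.0169), in a contrast added after the data had been seen. The Apln value was 3.18 (FDR 0.0538) without d2 wildtype replicate 1. The Ackr3 value rests on a d2 wildtype group without a count, and no group above 2 CPM, so that it depends on the prior count of the fit and bounds nothing. At d2 and d4 the group totals of Ackr3 were 0 and 17 counts in wildtype and 8 and 4 in Nr6a1-/- cells.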

How the results depend on the processing

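Of 30 values of the 5 genes past the threshold, those given only as a description included, 23 held under every alternative run for them, and 0 of the 30 changed direction. These counts are no support for the described values, which rest on the choice of genes or on the filter. The shift of the all-gene median between scalings stayed within 0.0929 on the log2 scale.

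With only the libraries compared in the fit, Apln from d2 to d2.5 in wildtype (1.43) and the Gdf11 interaction of Aplnr (-2.003) lost their calls. Without normalization factors the described step of Cxcl12 from d2 to d2.5 in wildtype was -0.66. Under DESeq2 Cxcr4 in the wildtype Gdf11 response (0.60, FDR 0.0605) lost its call, leaving only Ackr3, which is given there as a description.

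Leaving out 1 library at a time gave, among calls lost in at least 1 such fit, -0.92 to -0.46 for Cxcr4 at d4, 0.43 to 0.88 for Cxcr4 in the wildtype Gdf11 response, -2.38 to -1.71 for the Aplnr and -4.85 to -3.92 for the Apln interaction, 0.78 to 2.15 for Apln from d2 to d2.5 in wildtype, and 3.18 to 4.59 for Apln at d4 against d2. The described step of Cxcl12 from d2 to d2.5 in wildtype ran from -1.003 to -0.59. Cxcl12 at d4G ran from -1.32 to -0.71 and gained a call in 1 fit. Values without a call that changed sign included Cxcl12 at d3 (-0.99 to 0.044), Apln at d2 (-0.75 to 0.66), Aplnr at d4 against d2 (-0.46 to 2.74), Cxcl12 from d3 to d4 in Nr6a1-/- cells (-0.11 to 0.92), Cxcr4 at d4G (-0.26 to 0.047) and Cxcr4 from d2.5 to d3 in wildtype (-0.16 to 0.71). The described Cxcr4 difference at d2.5 ran from -2.15 to -1.28. The number of the 5 genes called ran from 0 to 1 at d4G and 0 to 2 for the interaction. It ran from 1 to 2 in the wildtype Gdf11 response and 0 to 2 from d2 to d2.5 in wildtype, counts that include values given as a description. The causes were not tested.

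Over all genes, the fit of only the libraries compared called 1398 genes at d4 and 212 for the interaction, against 2294 and 323. Leaving out d4 Nr6a1-/- replicate 3 gave 1495 and 205, and replicate 1 gave 830 for the interaction. Leaving out 1 library gave 299 to 385 calls at d2, against 494, and 478 to 782 at d2.5, against 784. The replicate numbers did not pair the samples: of 39 pairs of same-numbered libraries 3 had deviations correlated above 0.1 (-0.111 to 0.163). With the replicate block 2383 genes were called at d4, and the number of the 5 genes called was the same in each comparison tested. Depth limits the statements on Ackr3, on Cxcr4 before d4, on Aplnr before d3 and on Apln at d2, at d4G and in wildtype at d4, where groups held few counts.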
